A study of Mus musculus with 24 samples.

Results

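Retinoic acid is the active form of vitamin A, and 7 mouse genes for making it, breaking it down and sensing it are described here in dendritic cells grown from bone marrow. The genes were selected by name from the 38887 genes of the deposited count table: Rdh10, Dhrs9, Dhrs3, Aldh1a2, Cyp26b1, Rara and Rxra. Cyp26b1 was chosen from measured values, because its response to stimulation differed with genotype in these same samples, so all of its values are given as a description with no test. The other 6 were listed for their function in the pathway, with earlier results of these data known, and were tested.

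By genotype label the cells were WT (wild type) or KO (knockout) for IRE1α. This sensor of stress in the endoplasmic reticulum is the product of Ern1, and its RNase splices Xbp1 mRNA. Each genotype was left untreated, treated with zymosan (particles of yeast cell wall, ligands of dectin-1 and of Toll-like receptor 2) or treated with lipopolysaccharide (LPS, the bacterial ligand of Toll-like receptor 4). The 6 groups are WT untreated, WT zymosan, WT LPS, KO untreated, KO zymosan and KO LPS, with 4 replicates each, 24 samples in all. The design allows a comparison of stimuli within a genotype, of genotypes within a condition, and of the responses of both genotypes. The mouse strain and age, the allele, any Cre driver, and the dose and duration of the stimuli are not given in the sources used here. The labels do not say whether replicates came from separate mice or cultures, so the p-values measure the spread between these samples, which may be partly technical.

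Total counts were 32223256 to 46927434 per sample, and 14188 genes had enough counts to be tested. Levels are CPM, the counts of a gene per 1e+06 counts of its library, scaled between libraries. KO labels did not go with less Ern1 mRNA, which was 40.2 to 43.3 CPM in WT untreated samples and 48.2 to 54.6 CPM in KO untreated samples. Counts over a whole gene cannot show the loss of single exons, so Ern1 does not check the deletion, and KO below means the libraries labelled KO. Replicates 1 and 2 of a group, and replicates 3 and 4, resembled each other more than other pairs did. The ratio of the observed to the counting spread was 1.89 to 7.75 in these 12 pairs and 6.35 to 23.2 in the other 24 pairs (chi-square per gene, genes with at least 10 counts in the pair). The counts were therefore also tested after summing replicates 1 and 2, and 3 and 4, which leaves 2 sums per group. That test had no term for a shift between the pairs that recurs over groups, as seen below for Dhrs9 and Rara. Such a shift counts as spread there. Each call of a member that ended under the summed counts is named below. For other listed genes only some of the calls that ended are named. For the differences of responses between genotypes almost no gene passed with the sums. Over all genes 0 were called higher and 0 lower for zymosan, and 2 and 3 for LPS. A call of such a difference that ended with the sums therefore does not set a gene apart.

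Dendritic cell markers were present. Itgax, which encodes CD11c, was at 1051 to 1309 CPM in the group means, and H2-Aa, an MHC class II chain, at 939 to 1762 CPM. Zbtb46, a transcription factor of conventional dendritic cells, was at 15.0 to 25.4 CPM, while Flt3, the receptor of a dendritic cell growth factor, was at only 0.931 to 2.34 CPM. Other cell types were also seen. The summed level of 9 eosinophil markers was 835 to 1271 CPM over the 12 WT samples and 47.6 to 62.3 CPM over the 12 KO samples. Samples of bulk RNA mix all cells of a culture, so fewer cells of a type and less RNA per cell cannot be told apart.

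Retinol circulates bound to a carrier protein and is oxidised inside cells to retinaldehyde, which is oxidised further to retinoic acid. Retinoic acid enters the nucleus and binds a heterodimer of a retinoic acid receptor (RAR) and a retinoid X receptor (RXR), and CYP26 enzymes oxidise it to inactive products. Dendritic cells of the gut are known for making retinoic acid, with which they instruct T cells to home to the gut and favour regulatory T cells.

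The members lie on 6 chromosomes of GRCm38 (mm10). Rdh10 (ENSMUSG00000025921, chromosome 1, 16105774 to 16133734) and Dhrs9 (ENSMUSG00000027068, chromosome 2, 69380445 to 69404533) are on the plus strand. So are Dhrs3 (ENSMUSG00000066026, chromosome 4, 144892827 to 144928209) and Aldh1a2 (ENSMUSG00000013584, chromosome 9, 71215789 to 71296243). Cyp26b1 (ENSMUSG00000063415, chromosome 6, 84571414 to 84593908) is on the minus strand. Rara (ENSMUSG00000037992, chromosome 11, 98927818 to 98974942) and Rxra (ENSMUSG00000015846, chromosome 2, 27676440 to 27762957) are on the plus strand. All are protein coding. A small nuclear RNA gene, Gm22061, lies within Rara on the same strand and was counted separately.

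Promoters from RefSeq (GRCm38.p6, 250 bases before and 50 after the transcript start) matched 6 of the 7 members by symbol. The first is that of Cyp26b1, the gene with the genotype-dependent response, at chr6:84593761-84594060 on the minus strand. Aldh1a2, the gene that rose most, follows from chr9:71215539-71215838, plus strand. Dhrs9 (chr2:69380212-69380511, plus strand) and the most upstream of the 3 promoters of Dhrs3 (chr4:144892577-144892876, plus strand) belong to the dehydrogenases that fell together. Sequences run 5′ to 3′ on the gene's strand and capitals mark the letters of any motif match.
Cyp26b1: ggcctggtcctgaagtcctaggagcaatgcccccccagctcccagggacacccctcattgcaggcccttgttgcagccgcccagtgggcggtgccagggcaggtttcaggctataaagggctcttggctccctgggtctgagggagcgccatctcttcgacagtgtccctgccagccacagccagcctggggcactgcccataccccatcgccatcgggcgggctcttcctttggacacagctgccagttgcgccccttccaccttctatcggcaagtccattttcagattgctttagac
Aldh1a2: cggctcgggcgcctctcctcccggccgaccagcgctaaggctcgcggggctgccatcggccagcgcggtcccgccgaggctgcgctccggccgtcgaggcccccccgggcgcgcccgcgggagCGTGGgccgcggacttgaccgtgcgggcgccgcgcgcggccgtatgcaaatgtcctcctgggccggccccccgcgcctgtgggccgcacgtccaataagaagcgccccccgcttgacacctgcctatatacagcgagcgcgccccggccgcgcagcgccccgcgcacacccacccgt
Dhrs9: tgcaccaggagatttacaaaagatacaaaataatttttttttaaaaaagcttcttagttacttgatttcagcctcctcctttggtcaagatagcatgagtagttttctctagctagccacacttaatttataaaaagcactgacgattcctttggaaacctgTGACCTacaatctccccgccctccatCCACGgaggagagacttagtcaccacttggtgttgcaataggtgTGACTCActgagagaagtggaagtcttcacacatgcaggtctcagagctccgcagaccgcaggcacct
Dhrs3: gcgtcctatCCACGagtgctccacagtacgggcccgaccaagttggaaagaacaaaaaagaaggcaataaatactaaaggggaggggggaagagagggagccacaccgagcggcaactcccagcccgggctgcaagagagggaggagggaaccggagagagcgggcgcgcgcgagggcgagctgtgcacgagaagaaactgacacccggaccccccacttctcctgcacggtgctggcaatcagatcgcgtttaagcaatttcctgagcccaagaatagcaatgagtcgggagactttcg

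Motifs were searched on both strands. The retinoid half-site, AGGTCA or AGTTCA, occurs in 27.713% of the 32851 promoters of the table, and a pair of half-sites in the same direction with 1, 2 or 5 bases between them in 0.161%. The core bound by XBP1, CCACG, occurs in 32.769%, the kappaB motif (GGG and TTTCC with 2 bases between them) in 1.629% and the AP-1 motif TGANTCA in 7.808%. A pair would also count as half-sites, and no 2 of the matches found in the printed windows overlap. The printed Cyp26b1 window held no match. The Aldh1a2 window held the XBP1 core 127 bases before the start on the minus strand. In the Dhrs9 window a half-site stood 88 bases, an XBP1 core 62 bases and an AP-1 motif 18 bases before the start. The Dhrs3 window held an XBP1 core 241 bases before the start. Among the windows not printed, those of Rara and Rxra held half-sites and XBP1 cores. No promoter of the 6 members with an entry held a pair of half-sites or a kappaB match, and Rdh10 was not searched. These are letter matches only.

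Aldh1a2 encodes retinaldehyde dehydrogenase 2, which makes retinoic acid from retinaldehyde. It had the highest level of the 7 per kilobase of exon in all 6 groups, and it rose with both stimuli in both genotypes. In WT untreated samples it was at 113, 108, 100.4 and 102 CPM (replicates 1 to 4, as in all such lists). In WT zymosan samples it was at 377, 386, 354 and 361 CPM, and in WT LPS samples at 536, 542, 522 and 543 CPM. The 3 ranges were far apart. The level was 3.49-fold higher with zymosan (log2 fold change 1.81 ± 0.04, SE; edgeR adjusted p = 1.55e-21) and 5.06-fold higher with LPS (log2 2.34 ± 0.04; edgeR adjusted p = 6.91e-24).

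In the KO samples Aldh1a2 started higher and ended higher. It was at 178, 170.0, 166 and 165 CPM in untreated samples. With zymosan it was at 506, 501, 494 and 461 CPM, and with LPS at 751, 752, 755 and 740.3 CPM. Each KO range lay above the WT range of the same condition. The KO excess over WT was 1.60-fold untreated (log2 0.68 ± 0.04; edgeR adjusted p = 8.77e-12), 1.33-fold with zymosan (log2 0.41 ± 0.04; edgeR adjusted p = 6.47e-08) and 1.40-fold with LPS (log2 0.48 ± 0.04; edgeR adjusted p = 2.28e-09). All 3 calls also passed with the summed counts.

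The rise of Aldh1a2 over its own untreated level was smaller in KO cells. It was 2.89-fold with zymosan and 4.42-fold with LPS, against 3.49-fold and 5.06-fold in WT. The difference between these responses was -0.27 ± 0.06 on the log2 scale for zymosan (edgeR adjusted p = 0.0131) and -0.20 ± 0.06 for LPS (edgeR adjusted p = 0.0318). Neither held with the summed counts (edgeR adjusted p = 0.784 and 0.458), with which almost no gene of the whole table passed for these differences. The zymosan difference did not hold when only the groups compared were fitted (edgeR adjusted p = 0.0776). The LPS difference did not hold with no filter on low counts (edgeR adjusted p = 0.0712). The LPS difference also missed the threshold without WT untreated replicate 3 (edgeR adjusted p = 0.0685) or 4 (0.0593), WT LPS replicate 1 (0.0501), 2 (0.0533) or 4 (0.0624), KO untreated replicate 1 (0.0646), or KO LPS replicate 2 (0.0525) or 4 (0.0518).

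Cyp26b1 encodes a cytochrome P450 that oxidises retinoic acid and so ends its action. Its counts were low but not sparse, 210 to 659 reads per sample. In WT untreated samples it was at 4.69, 4.34, 5.56 and 4.92 CPM. It was at 9.69, 7.31, 8.87 and 9.20 CPM with zymosan and at 6.98, 6.45, 5.75 and 6.23 CPM with LPS. The 3 WT ranges did not overlap, with zymosan highest and untreated lowest.

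In KO cells the order was different. Cyp26b1 was at 11.3, 10.9, 11.1 and 12.3 CPM in KO untreated samples, above every WT sample of any condition. It was at 11.3, 11.3, 11.2 and 13.2 CPM with zymosan, a range that overlaps the untreated one, and at 7.75, 7.01, 7.74 and 6.87 CPM with LPS, below both. KO zymosan replicate 4 stood apart from the 3 others.

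In fold terms, zymosan went with a 1.79-fold higher level in WT and 1.03-fold in KO, and LPS with a 1.30-fold higher level in WT and a 1.55-fold lower level in KO. The log2 response in KO minus that in WT was -0.80 ± 0.12 for zymosan and -1.01 ± 0.12 for LPS. Between genotypes, the KO level was 2.34-fold that of WT untreated, 1.34-fold with zymosan and 1.16-fold with LPS, where the KO and WT ranges overlapped. These values are those Cyp26b1 was chosen on.

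**Figure D1:**
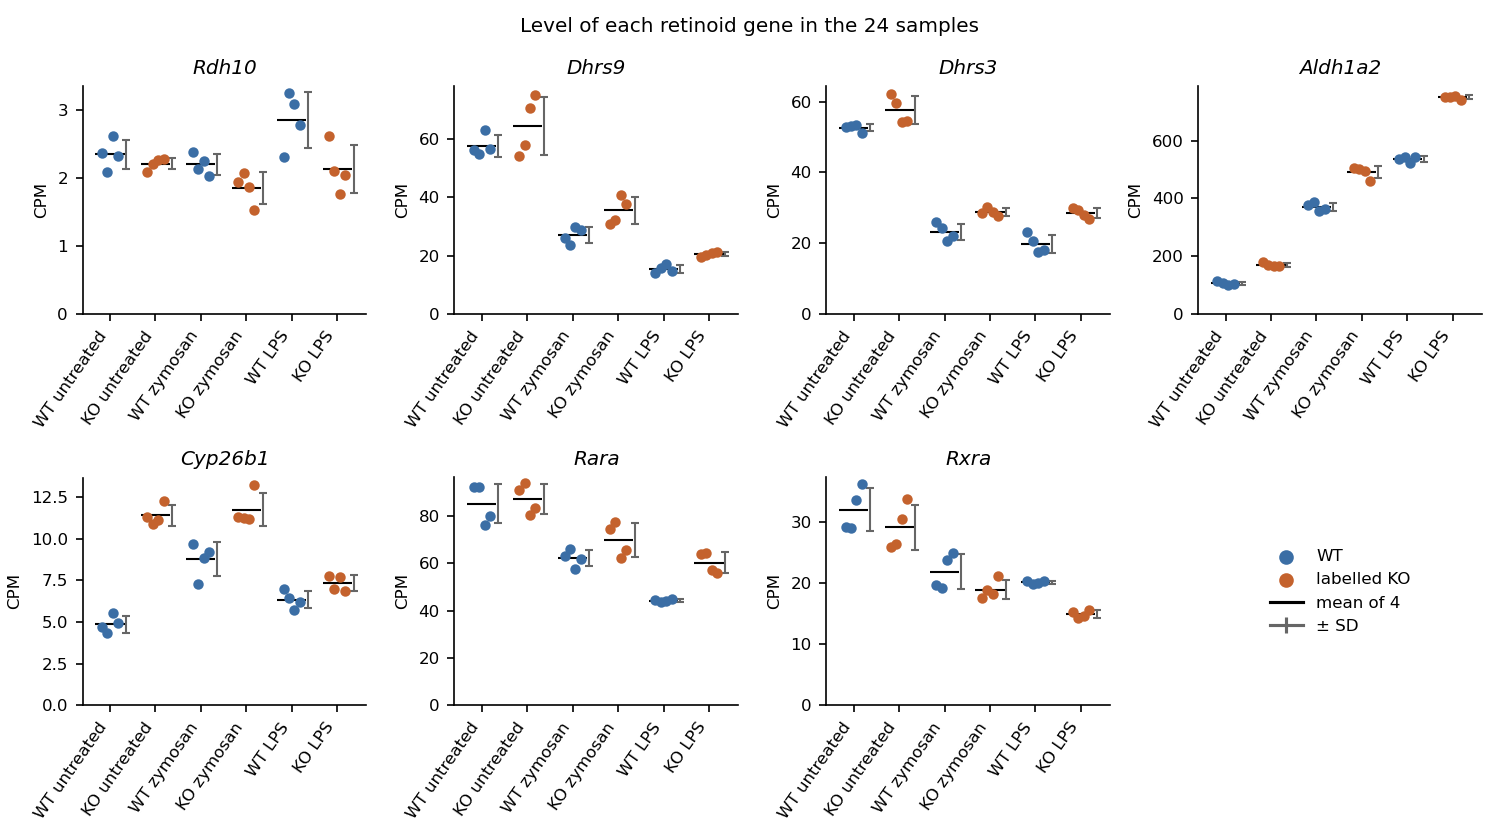
Level of each retinoid gene in CPM (vertical axes, each from 0) in the 24 samples by group (horizontal axes), with points for samples, a black line for the mean of 4 and a grey bar for ± 1 SD. Aldh1a2 climbs from WT untreated at 100.4 to 113 CPM to KO LPS at 740.3 to 755 CPM, whereas Dhrs9, Dhrs3, Rara and Rxra are lower after stimulation, and Cyp26b1 in KO untreated samples (10.9 to 12.3 CPM) lies above all WT samples.

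Dhrs3 encodes a retinaldehyde reductase, which turns retinaldehyde back into retinol, and it is a known target of retinoic acid. It fell with both stimuli in both genotypes. It was at 52.8, 53.3, 53.5 and 51.2 CPM in WT untreated samples, at 25.9, 24.2, 20.7 and 21.9 CPM with zymosan and at 23.1, 20.6, 17.4 and 18.1 CPM with LPS. Both stimulated ranges lay far below the untreated one and overlapped each other. The WT level fell 2.27-fold with zymosan (log2 -1.19 ± 0.07; edgeR adjusted p = 1.30e-13) and 2.66-fold with LPS (log2 -1.41 ± 0.07; edgeR adjusted p = 2.81e-15).

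In KO cells Dhrs3 fell by less with LPS. It was at 62.2, 59.6, 54.3 and 54.7 CPM untreated, at 28.5, 30.3, 28.7 and 27.7 CPM with zymosan and at 29.9, 29.4, 27.9 and 26.9 CPM with LPS. Every KO sample lay above every WT sample of the same condition, although the untreated difference did not pass (log2 0.13, 95% interval -0.01 to 0.27; edgeR adjusted p = 0.273). The falls in KO were 2.00-fold with zymosan (edgeR adjusted p = 3.96e-12) and 2.02-fold with LPS (edgeR adjusted p = 1.59e-12). The LPS response differed between genotypes by 0.40 ± 0.10 on the log2 scale (edgeR adjusted p = 0.0117) but not with the summed counts (edgeR adjusted p = 0.312). The zymosan response differed by 0.18 ± 0.10 (95% interval -0.02 to 0.39) and did not pass (edgeR adjusted p = 0.463).

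Dhrs9 encodes a short-chain dehydrogenase that can oxidise retinol. It was at 56.1, 54.99, 63.2 and 56.4 CPM in WT untreated samples, at 25.9, 23.5, 29.7 and 28.9 CPM with zymosan and at 14.02, 15.8, 16.9 and 14.6 CPM with LPS. Unlike Dhrs3, its LPS range lay wholly below its zymosan range. The WT falls were 2.14-fold with zymosan (log2 -1.10 ± 0.10; edgeR adjusted p = 2.05e-10) and 3.76-fold with LPS (log2 -1.91 ± 0.10; edgeR adjusted p = 5.53e-15), and zymosan exceeded LPS 1.76-fold (edgeR adjusted p = 4.96e-07).

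Dhrs9 in KO cells was at 54.1, 58.0, 70.6 and 75.1 CPM untreated, at 30.99, 32.3, 40.9 and 37.8 CPM with zymosan and at 19.4, 20.3, 21.01 and 21.2 CPM with LPS. Replicates 3 and 4 lay above replicates 1 and 2 in all 3 KO groups, and so they did in WT untreated and WT zymosan samples. Such splits were not particular to Dhrs9: for Rara, replicates 1 and 2 lay above replicates 3 and 4 in all 3 KO groups. Against WT the KO level was 1.31-fold higher with zymosan (edgeR adjusted p = 0.00488) and 1.33-fold higher with LPS (edgeR adjusted p = 0.00323), and the ranges did not overlap. Both calls ended with the summed counts (edgeR adjusted p = 0.117 and 0.0742). The responses themselves did not differ detectably by genotype, with edgeR adjusted p = 0.507 for zymosan and 0.259 for LPS.

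Rdh10 encodes the retinol dehydrogenase that is essential for retinoic acid synthesis in the embryo. It had the lowest level per kilobase of the 7 in every group, with 55 to 122 reads per sample. Its group means ran from 1.85 ± 0.24 CPM (SD, n = 4) in KO zymosan samples to 2.85 ± 0.41 CPM in WT LPS samples, and each group in that order overlapped the next. The KO zymosan samples lay below all KO untreated samples, but that difference did not pass (log2 -0.25, 95% interval -0.51 to 0.01; edgeR adjusted p = 0.0801). The WT LPS samples were at 2.31, 3.24, 3.08 and 2.77 CPM and the WT untreated samples at 2.37, 2.09, 2.61 and 2.32 CPM. The rise with LPS in WT was 1.22-fold (log2 0.29 ± 0.12; edgeR adjusted p = 0.0329) although the ranges overlapped. It missed the threshold with the summed counts (edgeR adjusted p = 0.0923), with no filter on low counts (0.0708) and without WT untreated replicate 2 (0.103) or 4 (0.0593) or WT LPS replicate 2 (0.125) or 3 (0.0932). With LPS the KO level was 1.34-fold lower than in WT (log2 -0.42 ± 0.12; edgeR adjusted p = 0.0093), which ended with the summed counts (edgeR adjusted p = 0.0792).

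Rara encodes RARα, a nuclear receptor of retinoic acid. It was at 92.2, 92.1, 76.2 and 80.0 CPM in WT untreated samples, at 63.0, 66.1, 57.7 and 61.9 CPM with zymosan and at 44.4, 43.4, 44.0 and 44.99 CPM with LPS. The 3 ranges did not overlap. It fell 1.37-fold with zymosan (log2 -0.45 ± 0.07; edgeR adjusted p = 3.58e-06) and 1.93-fold with LPS (log2 -0.95 ± 0.07; edgeR adjusted p = 9.39e-12).

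In KO cells Rara was at 90.8, 93.7, 80.3 and 83.4 CPM untreated, at 74.6, 77.5, 62.1 and 65.7 CPM with zymosan and at 63.9, 64.2, 57.2 and 56.0 CPM with LPS. Its LPS samples all lay above those of WT, by 1.36-fold (log2 0.45 ± 0.07; edgeR adjusted p = 3.66e-05). The fall with LPS was 1.44-fold in KO, and the log2 response differed from that of WT by 0.42 ± 0.10 (edgeR adjusted p = 0.00921). The difference of the responses ended with the summed counts (edgeR adjusted p = 0.308), whereas the KO excess with LPS did not.

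Rxra encodes RXRα, the partner that RARs share with several other nuclear receptors. It was at 29.3, 29.0, 33.7 and 36.3 CPM in WT untreated samples, at 19.7, 19.2, 23.9 and 25.0 CPM with zymosan and at 20.4, 19.9, 19.99 and 20.4 CPM with LPS. In KO samples it was at 26.0, 26.5, 30.6 and 33.8 CPM, at 17.5, 19.0, 18.2 and 21.1 CPM and at 15.4, 14.4, 14.6 and 15.7 CPM in the same order. It fell in all 4 comparisons with untreated cells, from 1.46-fold with zymosan in WT (edgeR adjusted p = 5.52e-06) to 1.95-fold with LPS in KO (edgeR adjusted p = 6.92e-10). With LPS the KO level was 1.34-fold below that of WT (log2 -0.43 ± 0.09; edgeR adjusted p = 0.000979), and no samples overlapped. That call ended with the summed counts (edgeR adjusted p = 0.0508). Rara was thus higher and Rxra lower in KO than in WT under LPS.

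**Figure D2:**
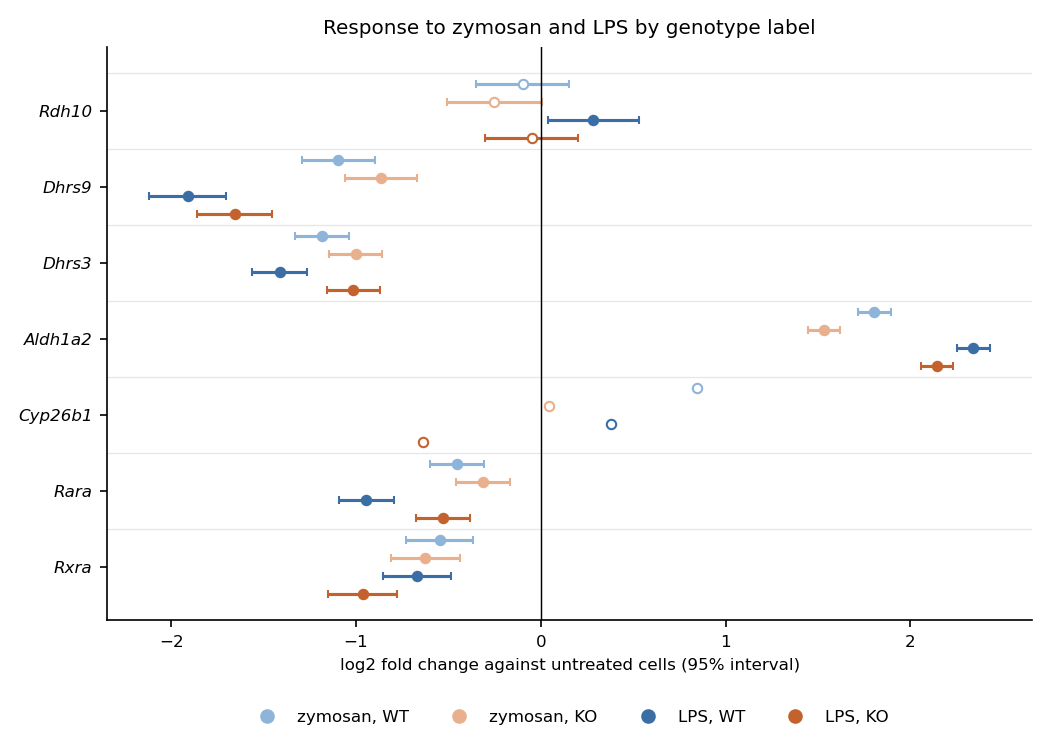
Log2 fold change of each member against untreated cells (horizontal axis) for zymosan (light) and LPS (dark) in WT (blue) and KO (orange), with bars for the 95% interval. Filled points passed an edgeR adjusted p of 0.05, open points did not, and Cyp26b1 has open points and no bar because it was not tested. Aldh1a2 lies between 1.53 and 2.34, and Dhrs9, Dhrs3, Rara and Rxra lie below 0 in all 4 comparisons.

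Counting the 6 tested members, zymosan raised 1 (Aldh1a2) and lowered 4 (Dhrs9, Dhrs3, Rara, Rxra) in WT, where 34.3% of all tested genes were called higher and 35.9% lower. LPS raised 2 (Aldh1a2, Rdh10) and lowered the same 4 in WT, beside 35.9% of all genes higher and 39.7% lower. In KO, zymosan raised 1 and lowered 4 (31.6% and 35.2% of all genes), and LPS raised 1 and lowered 4 (34.4% and 37.4%). Most tested genes passed in each of these comparisons, so a call alone did not set the members apart. The stimulus comparisons share their untreated samples, so they are not independent of one another.

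Set against each other within WT, zymosan exceeded LPS for 3 members (Dhrs9, Dhrs3, Rara) and was below it for 2 (Rdh10, Aldh1a2), beside 24.5% and 21.9% of all genes. Aldh1a2 was 1.45-fold lower with zymosan than with LPS (edgeR adjusted p = 1.72e-10). The Dhrs3 call (log2 0.23 ± 0.07; edgeR adjusted p = 0.0143) ended with the summed counts (0.131), when only the groups compared were fitted (0.0651) and without WT zymosan replicate 1 (0.0720) or WT LPS replicate 3 (0.0730) or 4 (0.0624). The Rdh10 call (log2 -0.38 ± 0.12; edgeR adjusted p = 0.0121) ended with the summed counts (0.0701) and without WT LPS replicate 2 (0.0542). In KO, zymosan exceeded LPS for 3 (Dhrs9, Rara, Rxra) and was below it for 1 (Aldh1a2), beside 22.7% and 20.0% of all genes. The KO calls of Rara (log2 0.22 ± 0.07; edgeR adjusted p = 0.0172) and Rxra (log2 0.34 ± 0.09; edgeR adjusted p = 0.00503) ended with the summed counts (0.167 and 0.0789). Rara also missed the threshold without KO zymosan replicate 1 (0.0617) or 2 (0.0841) or KO LPS replicate 3 (0.0543) or 4 (0.0634).

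Between genotypes, 1 of 6 tested members was higher in KO untreated cells (Aldh1a2) and edgeR called 0 lower, beside 4.31% and 5.64% of all genes. The count of lower members was also 0 at an unadjusted p under 0.05 and by DESeq2. With zymosan 3 were higher (Aldh1a2, Dhrs3, Dhrs9) and 0 lower by edgeR, beside 10.6% and 11.4% of all genes. There DESeq2 also called 0 lower and 1 (Rxra) was lower at an unadjusted p under 0.05. Dhrs3 was 1.24-fold higher (log2 0.31 ± 0.07; edgeR adjusted p = 0.0026; 0.112 with the summed counts). Rara (log2 0.17, 95% interval 0.02 to 0.32; edgeR adjusted p = 0.0896) and Rxra (log2 -0.21, interval -0.40 to -0.02; edgeR adjusted p = 0.104) did not pass. Without KO zymosan replicate 3 Rara passed (0.0281), and without WT zymosan replicate 2 Rxra did (0.0487). With LPS all 6 passed, 4 higher (Aldh1a2, Dhrs3, Rara, Dhrs9) and 2 lower (Rxra, Rdh10), beside 15.6% and 18.2% of all genes. Dhrs3 was 1.44-fold higher (log2 0.53 ± 0.07; edgeR adjusted p = 5.14e-06).

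The test of the response itself called 0 members higher and 1 lower (Aldh1a2) for zymosan, beside 0.973% and 0.846% of all genes. The 0 also held at an unadjusted p under 0.05 and by DESeq2. For LPS it called 2 higher (Rara, Dhrs3) and 1 lower (Aldh1a2), beside 4.61% and 5.84% of all genes. With the summed counts no member's difference of responses passed by edgeR. Over all genes 0 were then called higher and 0 lower for zymosan, and 2 and 3 for LPS.

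**Figure D3:**
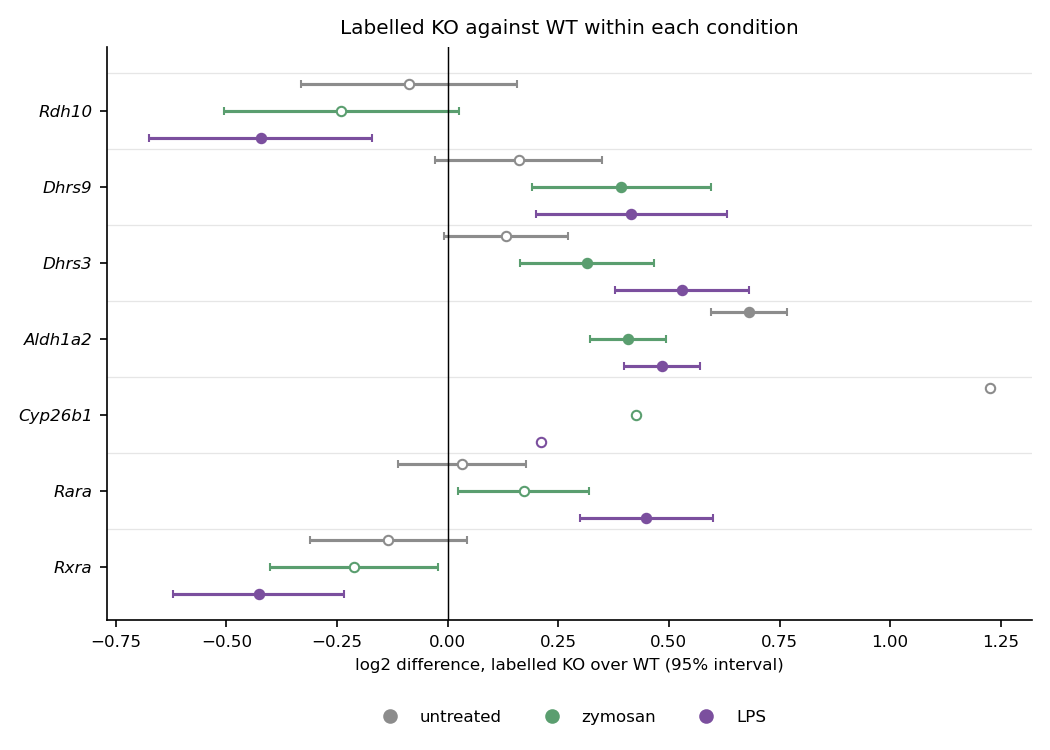
Log2 difference of KO over WT (horizontal axis) for each member in untreated (grey), zymosan (green) and LPS (purple) samples, with bars for the 95% interval. Filled points passed an edgeR adjusted p of 0.05, open points did not, and Cyp26b1 was not tested. Aldh1a2 lies at 0.41 to 0.68 in all 3 conditions, while Dhrs9, Dhrs3 and Rara lie higher, and Rdh10 and Rxra lower, with LPS than untreated.

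Marker lists of other cell types moved with genotype and with the stimuli beside these results. Of all tested genes, 4.31% were higher and 5.64% lower in KO untreated samples. The shares were 10.6% and 11.4% with zymosan and 15.6% and 18.2% with LPS. In WT, 34.3% of all tested genes rose with zymosan and 35.9% with LPS. Of 8 eosinophil markers tested, 7 were lower in KO untreated and KO zymosan samples and 8 in KO LPS samples, and none was at 0 in all 4 samples of a group. Of 8 macrophage markers, 2 were lower in KO untreated, 5 in KO zymosan and 8 in KO LPS samples. Their summed level was 1833 to 2070.2 CPM in WT untreated and 1781 to 2027 CPM in KO untreated samples, but 2361 to 2474 CPM in WT LPS and 1699.6 to 1720.5 CPM in KO LPS samples. The summed level of 11 conventional dendritic cell markers was 2269.6 to 2402 CPM in WT untreated and 2631 to 2787 CPM in KO untreated samples. With LPS it was 2800.3 to 3006 CPM in WT and 3058 to 3282 CPM in KO. With zymosan it was 2835 to 2972 CPM in WT and 3286 to 3526 CPM in KO. Although the sums were higher in KO, the 10 tested markers were split: 2 were higher and 2 lower in KO untreated, 4 and 2 with zymosan, and 2 and 3 with LPS. Neutrophil marker sums overlapped between genotypes in untreated cells (1107 to 1740.2 CPM in WT, 1093 to 1556 CPM in KO) and were higher in KO with LPS (1276 to 1369 CPM in WT, 1596 to 1788 CPM in KO). Stromal marker sums were at most 35.7 CPM and lymphocyte marker sums at most 1.76 CPM in any sample. Some sums also moved with the stimuli. In WT the plasmacytoid marker sum was 146 to 173 CPM untreated, 685 to 739 CPM with zymosan and 966 to 1088 CPM with LPS, and 3 and 4 of 4 tested markers rose. In KO it was 141 to 171, 559 to 624 and 741 to 767 CPM. The mast cell and basophil sum in WT was 48.6 to 79.5 CPM untreated, 140.3 to 212 CPM with zymosan and 253 to 275 CPM with LPS, although only 2 and 1 of its 8 markers rose. In KO it was 41.9 to 53.7, 109 to 128 and 212 to 242 CPM. The stromal sum in stimulated samples lay below its untreated range (24.4 to 34.7 CPM untreated, 16.6 to 22.5 with zymosan and 14.7 to 16.3 with LPS in WT). The part of these cell types in the retinoid responses to the stimuli and in the genotype differences was not tested.

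Per kilobase of exon, Aldh1a2 was the leading member in all 6 groups, followed by Rara and Dhrs3, with Cyp26b1 and Rdh10 last. In WT untreated cells the levels ran from 46.7 CPM per kb for Aldh1a2 through 19.5 for Rara, 17.997 for Dhrs3, 13.5 for Dhrs9 and 5.87 for Rxra to 0.912 for Cyp26b1 and 0.564 for Rdh10. In KO LPS cells Aldh1a2 stood at 331 CPM per kb and the next, Rara, at 13.8. The ratio of Aldh1a2 to Cyp26b1 mRNA per kilobase was 51.8 ± 7.45 (SD, n = 4) in WT untreated and 35.3 ± 2.51 in KO untreated cells. It was 101 ± 15.9 and 99.3 ± 11.3 with zymosan and 200.3 ± 14.2 and 242 ± 13.96 with LPS, in WT and KO respectively. The ratio was thus lower in KO than in WT before stimulation, overlapped with zymosan (91.9 to 124.9 in WT, 82.4 to 105.5 in KO) and was higher in KO with LPS. It contains Cyp26b1, which was chosen for its genotype-dependent response, and is given without a test. It leaves out Cyp26a1, the other CYP26 enzyme tested, so it is not a measure of synthesis over all breakdown.

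**Figure D4:**
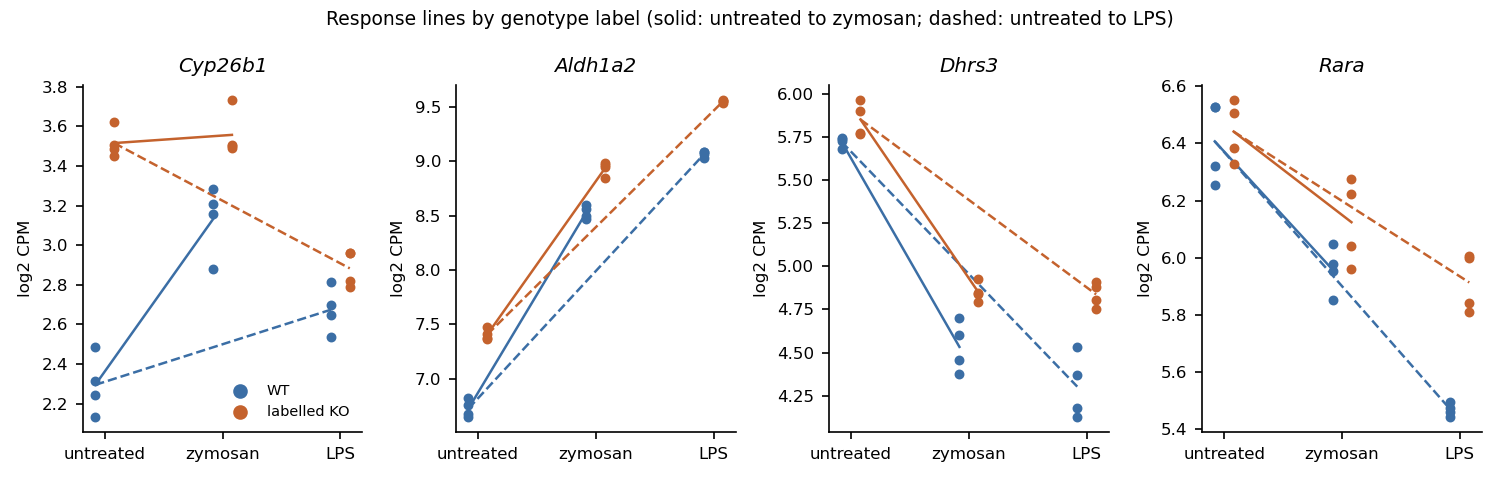
Log2 CPM of Cyp26b1, Aldh1a2, Dhrs3 and Rara (vertical axes, not from 0) by treatment, with points for samples and lines joining the means of untreated cells to zymosan (solid) and to LPS (dashed), in WT (blue) and KO (orange). The Cyp26b1 lines of WT slope up and the KO line to LPS slopes down, while those of the 3 other genes slope the same way in both genotypes.

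The wider pathway was read from 73 genes in 9 lists, of which 17 had too few counts to test, among them Stra6, Lrat, Crabp1, Cyp26c1 and Rxrg. Counts below leave out the 7 members and stand beside the shares over all genes: 34.3% higher and 35.9% lower with zymosan in WT, 35.9% and 39.7% with LPS in WT, and 15.6% and 18.2% for KO against WT with LPS. Of 6 tested genes of retinol uptake, storage and carriage, 2 rose and 1 fell with each stimulus in WT. Scarb1, a receptor that takes up lipids and carotenoids, fell (log2 -0.88 ± 0.07 with zymosan, -1.19 ± 0.07 with LPS). Rbp4, the plasma carrier of retinol, was higher in KO cells in all 3 conditions: 8.83 ± 1.11 against 2.23 ± 1.12 CPM untreated, a log2 difference of 1.98 ± 0.27 (edgeR adjusted p = 1.13e-05). It was 1.98 ± 0.28 with zymosan and 1.09 ± 0.27 with LPS (edgeR adjusted p = 9.72e-06 and 0.00298), and the LPS call ended with the summed counts (0.0982). The list's median log2 change was 0.05 with zymosan and 0.07 with LPS in WT, beside -0.01 and -0.04 over all genes.

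Of 9 tested genes that interconvert retinol and retinaldehyde, 4 rose and 1 fell with zymosan and 5 rose and 2 fell with LPS in WT, with list medians of 0.09 and 0.27 on the log2 scale. In this list the retinaldehyde reductases Rdh11 and Rdh12 rose in both genotypes with both stimuli. In WT Rdh11 went from 29.2 ± 1.25 CPM untreated to 51.5 ± 4.96 with zymosan and 60.6 ± 3.15 with LPS, and Rdh12 rose by log2 1.48 ± 0.14 and 1.35 ± 0.14. Rdh13 fell by log2 -0.80 ± 0.09 with each. The rise of Rdh11 with LPS was smaller in KO (difference -0.34 ± 0.09; edgeR adjusted p = 0.0140; 0.316 with the summed counts). So within the interconverting enzymes Dhrs9 and Dhrs3 fell while Rdh11 and Rdh12 rose.

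Of the other retinaldehyde dehydrogenases, 2 of 4 were tested and both were scarce: Aldh1a1 was at 0.0549 to 0.253 CPM in the group means and Aldh1a3 at 0.194 to 0.362 CPM. Aldh1a1 rose in KO (log2 1.81 ± 0.54 with zymosan, 2.12 ± 0.51 with LPS; edgeR adjusted p = 0.00447 and 0.000621), and the difference of its responses from WT did not pass (0.633 and 0.193). Both genes fall below the level set for naming and were chosen after their values were seen. Cyp26a1, the other CYP26 enzyme tested, rose with LPS in WT (log2 0.66 ± 0.24; edgeR adjusted p = 0.0160) and KO (log2 0.59 ± 0.24; edgeR adjusted p = 0.0334), and both calls ended with the summed counts (0.126 and 0.179). It showed no genotype difference past the threshold (edgeR adjusted p = 0.268 to 0.759), and its untreated level was 3.44 ± 1.03 CPM in WT and 3.03 ± 0.873 CPM in KO.

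Of the other receptors, 3 of 4 were tested. Rxrb fell with both stimuli in both genotypes, from 30.8 ± 1.81 CPM in WT untreated to 22.6 ± 1.41 with zymosan and 24.04 ± 2.35 with LPS. Rarg was at 18.5 to 20.9 CPM in all group means and passed in 1 comparison, LPS in KO (log2 0.18 ± 0.06; edgeR adjusted p = 0.0139; 0.0830 with the summed counts). Rarb, itself a textbook target of retinoic acid, was chosen after its values were seen because it is below 1 CPM on average. It was at 0.826 ± 0.20 CPM in WT untreated and 1.53 ± 0.24 CPM in KO untreated samples. It fell with both stimuli in both genotypes and was higher in KO in all 3 conditions (log2 0.89 ± 0.19 untreated, 2.47 ± 0.32 with zymosan, 1.23 ± 0.29 with LPS; edgeR adjusted p = 0.00252, 2.79e-06 and 0.00206), the untreated call ending with the summed counts (0.127).

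Of 8 tested nuclear receptors that pair with RXR, 6 rose and 2 fell with each stimulus in WT, and the list median was 0.40 with zymosan and 0.54 with LPS on the log2 scale. Nr4a1, an immediate early gene, rose most with zymosan (log2 2.40 ± 0.11 in WT, 2.08 ± 0.12 in KO), and Nr1h3, the oxysterol receptor LXRα, rose most with LPS (2.01 ± 0.11 in WT, 1.61 ± 0.12 in KO). Vdr, the vitamin D receptor, and Pparg, a fatty acid receptor, fell. With LPS 4 of the 8 were lower and 1 higher in KO than in WT. Of 8 receptor co-regulators, 3 rose with zymosan and 4 with LPS in WT. Among them the co-activator Ncoa1 rose (log2 0.42 ± 0.07 and 0.73 ± 0.07).

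Known targets of retinoic acid did not move in 1 direction. Of 9 tested, 3 rose and 4 fell with zymosan in WT and 4 rose and 3 fell with LPS, with medians of -0.02 and -0.19. Cd38, an ectoenzyme, went from 134 ± 9.37 CPM in WT untreated to 403 ± 12.0 with zymosan and 364 ± 7.38 with LPS. Tgm2, tissue transglutaminase, rose by log2 1.03 ± 0.04 and 1.22 ± 0.04, and Asb2, a ubiquitin ligase subunit, fell by log2 -0.95 ± 0.09 and -0.89 ± 0.09. Hic1, a transcriptional repressor, was higher in KO in all 3 conditions (log2 0.51 ± 0.13, 0.82 ± 0.14 and 1.01 ± 0.13; edgeR adjusted p = 0.00885, 0.000105 and 2.10e-06), the untreated call ending with the summed counts (0.243). The responses of Cd38 and Tgm2 were smaller in KO for both stimuli, by -0.24 ± 0.06 and -0.34 ± 0.05 for zymosan and by -0.28 ± 0.06 and -0.22 ± 0.05 for LPS (edgeR adjusted p = 0.0440, 0.00154, 0.00540 and 0.00847). With the summed counts these 4 calls ended (edgeR adjusted p = 0.873, 0.594, 0.297 and 0.350).

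Factors known to raise Aldh1a2 in dendritic cells were measured as well. Of 7 tested, 4 rose and 1 fell with zymosan in WT, and 4 rose and 2 fell with LPS. Pparg was among those that fell (log2 -0.49 ± 0.08 with zymosan, -0.96 ± 0.08 with LPS). Tlr2, a receptor of zymosan, went from 220.1 ± 12.1 CPM in WT untreated to 592 ± 20.7 with zymosan and 546 ± 30.2 with LPS, and it was lower in KO in all 3 conditions (log2 -0.34 ± 0.07, -0.64 ± 0.07 and -0.64 ± 0.07; edgeR adjusted p = 0.00252, 3.71e-07 and 3.16e-07), the untreated call ending with the summed counts (0.213). Irf4, a transcription factor of dendritic cells, was higher in KO in all 3 (log2 0.20, 0.18 and 0.35, each ± 0.06; edgeR adjusted p = 0.0262, 0.0278 and 6.34e-05), the first 2 calls ending with the summed counts (0.444 and 0.320). Il4ra, the interleukin 4 receptor chain, rose by log2 1.00 ± 0.05 with LPS in WT and 0.69 ± 0.05 in KO, a difference of -0.31 ± 0.07 (edgeR adjusted p = 0.00540). It ended with the summed counts (0.298).

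With the summed counts, 29 of 31 calls of listed genes for zymosan in WT and 31 of 35 for LPS in WT were made again, as were 26 of 31 and 27 of 37 in KO. The matching counts over all genes are not given here for these stimulus comparisons, so the shares do not set the listed genes apart. Fewer genotype calls were made again: 1 of 10 in untreated cells (Rbp4), 6 of 19 with zymosan and 11 of 21 with LPS. For the difference of responses none was, 0 of 4 for zymosan and 0 of 8 for LPS. Over all genes, the genotype calls higher and lower went from 611 and 800 to 118 and 300 in untreated cells. They went from 1510 and 1624 to 394 and 570 with zymosan, and from 2220 and 2585 to 841 and 1146 with LPS. For the difference of responses 0 and 0 genes remained for zymosan and 2 and 3 for LPS. Calls were thus not lost in the listed genes alone.

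**Figure D5:**
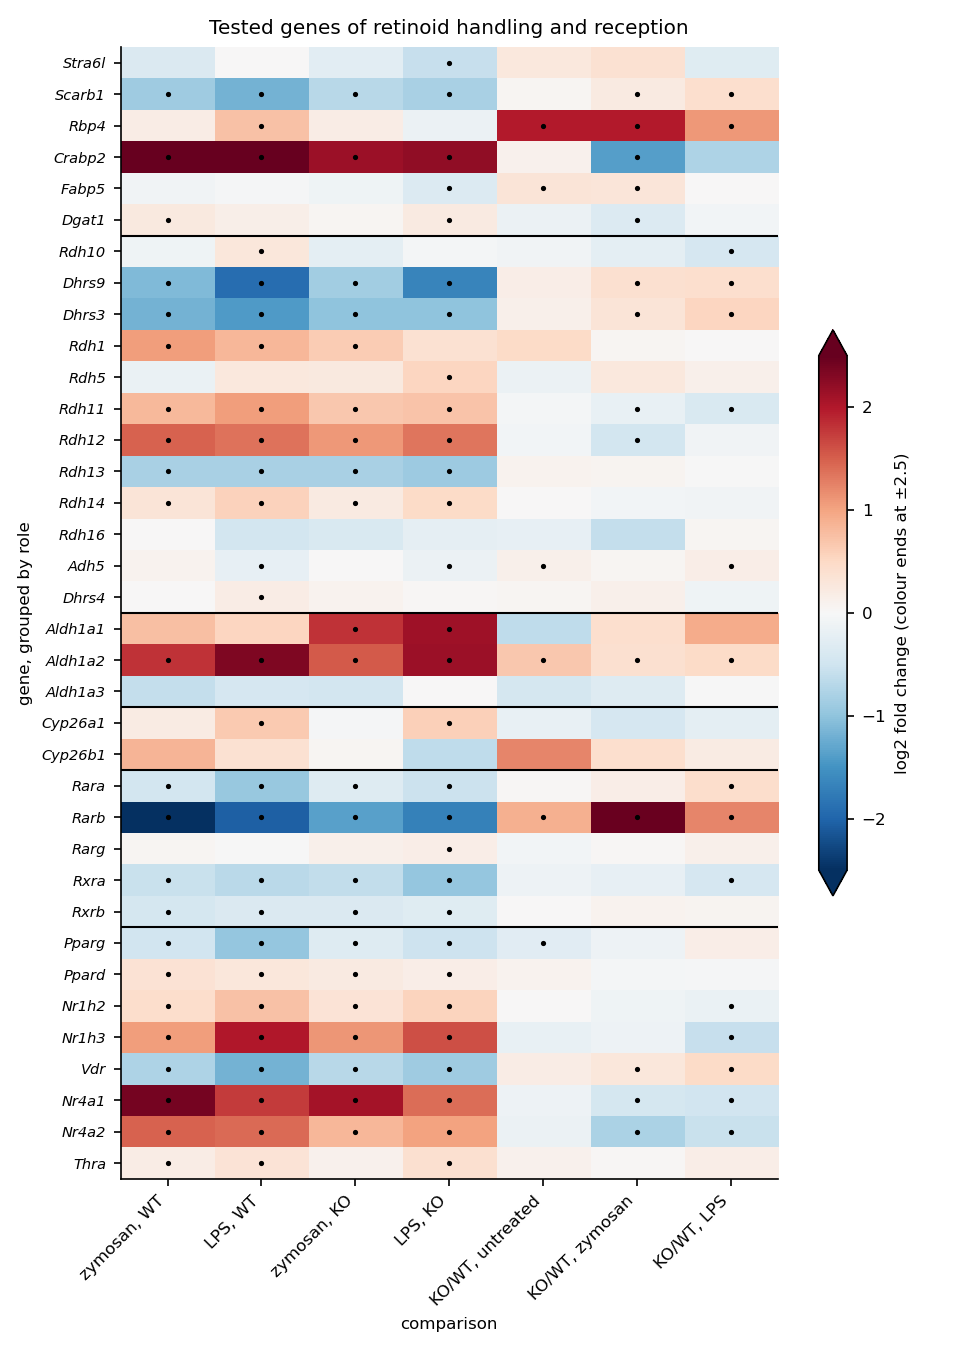
Log2 fold change (colour, ending at ±2.5) of the tested genes of retinoid handling, synthesis, breakdown, receptors and RXR partners (vertical axis, with lines between roles) in 7 comparisons (horizontal axis), with a dot where edgeR's adjusted p was under 0.05 and no dot for Cyp26b1, which was not tested. Aldh1a2, Rdh11, Rdh12, Nr1h3 and Nr4a1 are red in the 4 stimulus columns, and Dhrs9, Dhrs3, Rara, Rarb, Rxra, Rxrb and Vdr are blue there.

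Among 9059 named genes averaging 5 CPM or more, those whose log2 CPM followed Cyp26b1 most closely over the 24 samples were Cd36 (Pearson r = 0.836), a scavenger receptor, Esr1 (0.817), the oestrogen receptor, Ticam2 (0.800), Ptgir (0.799) and Tsku (0.796). The genes closest to Aldh1a2 were Gbp8 (0.991), Rhoc (0.986), Mthfd2 (0.985), Plgrkt (0.985) and Cp (0.985). In both cases 2 of the 5 were also among the 5 closest by Spearman's rho. The likeness to Cyp26b1 was looser than that to Aldh1a2. These are descriptions over samples that share 6 group means.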

How the data were processed

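RNA sequencing of 24 samples (6 groups of 4) was analysed from 1 deposited table of gene counts. The authors' counts were made with Bowtie2 and RSEM 1.2.31 on mm10, and DESeq2 is also named, per the submitters' processing notes. The strand setting is not given in the sources used here. Values are whole counts as deposited. GENCODE M21 named 37570 of 38887 identifiers (96.613%), and 14809 genes had no count.

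One edgeR 4.0.16 quasi-likelihood model (R 4.3.3; group means, TMM scaling, filterByExpr) was fitted to 14188 genes in all 24 samples, with p-values adjusted by Benjamini-Hochberg over these genes and calls at an adjusted p under 0.05. It was checked on simulated counts with known changes, drawn independently for each library. Such counts lack the likeness within replicate pairs, so they cannot show how that likeness affects the p-values. Intervals are at 95%. CPM use TMM-scaled totals, and log2 CPM has a prior count of 2. Alternatives were DESeq2 1.42.0 and its size factors, no filter, only the groups compared, a replicate block, summed replicate pairs, each library left out, the longest transcript in place of the exon union, and Spearman's rho. Values from replicates 1 and 2 alone and 3 and 4 alone were added after seeing the data.

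Numbers were taken to pair samples where all 4 correlations of same-numbered deviations exceeded 0.1. This held in 2 of 15 pairs of groups, untreated with zymosan in WT (0.151 to 0.247) and in KO (0.125 to 0.205), where the labels name no shared source.

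The members, the retinoid lists and the marker lists (eosinophil, neutrophil, mast cell and basophil, macrophage, conventional and plasmacytoid dendritic cell, stromal, lymphocyte) were chosen with earlier results of these data known. All 7 members are described. From each list up to 3 called genes per comparison, those of largest change averaging 1 CPM or more, could be named. The 5 genes most like Cyp26b1 and Aldh1a2 were taken from named genes averaging 5 CPM or more. Some listed genes are not reported here.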

Additional observations from a re-analysis of the deposited data

Results flagged for a closer look

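One sample stood apart from its group. Cyp26b1 in KO zymosan replicate 4 was at 13.2 CPM while the other replicates were at 11.2 to 11.3 CPM, and the gap was 0.928 of the group's range, above Dixon's critical value for 4 samples. Of 42 combinations of member and group checked, 1 passed, and chance flags about 1 in 20. As Cyp26b1 was chosen from measured values, its gap is given as a description.

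The response to a stimulus differed between genotypes, by the edgeR test of that difference, in 4 cases. The log2 response of Aldh1a2 in KO minus that in WT was -0.27 for zymosan and -0.20 for LPS. For LPS it was 0.40 for Dhrs3 and 0.42 for Rara. None of the 4 passed with the summed counts (edgeR adjusted p = 0.784, 0.458, 0.312 and 0.308), with which almost no gene of the whole table passed. The Aldh1a2 difference for zymosan also ended when only the groups compared were fitted (edgeR adjusted p = 0.0776). That for LPS ended with no filter on low counts (0.0712) and without some single libraries.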

How the results depend on the processing

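Over the alternatives that left out no library, 612 values of single members or levels counted as the same. Tested values among them kept their direction and side of the threshold, and values with no test changed by less than the SD of the replicates. A further 63 values with no test moved (with the longest transcript, DESeq2 size factors, single pairs of replicates or Spearman's rho). Of the rest, 18 called values lost the call, 3 gained it and 6 changed sign.

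With replicates 1 and 2, and 3 and 4, summed, members called higher were 1 for LPS in WT, 1 for zymosan against LPS in KO and 1 for KO against WT with zymosan. Members called lower were 1 for zymosan against LPS in WT and 0 for KO against WT with LPS. No member was called higher or lower (0 and 0) for either difference of responses. Genes called higher and lower among all genes were then 2280 and 1979 for zymosan against LPS in WT, 1969 and 1582 in KO, 118 and 300 for KO against WT untreated, 394 and 570 with zymosan and 841 and 1146 with LPS. For the differences of responses they were 0 and 0 for zymosan and 2 and 3 for LPS, against 138 and 120, and 654 and 828, in 24 samples. Summing leaves fewer samples.

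With the replicate block, 266 and 240 genes were called higher and lower for the difference of the zymosan response and 1040 and 1356 for that of LPS. Members called lower were 2 for the latter and 1 for KO against WT with zymosan, since Rxra passed in both (edgeR adjusted p = 0.022 and 0.0173), and Rara passed in KO against WT with zymosan (0.00622). By the rule above, replicate numbers did not pair WT with KO samples. Their same-numbered correlations were 0.0345 to 0.117 with zymosan and 0.0169 to 0.0737 with LPS. The extra genotype calls with the block thus rest on no pairing between genotypes. The block changed no member's call for zymosan against untreated in WT or KO.

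With DESeq2, 228 and 196 genes were called for the difference of the zymosan response. With only the groups compared, 47 genes and 0 members were called lower there. With no filter, members called higher were 1 for LPS in WT and members called lower 0 for the difference of the LPS response.

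Leaving out each library in turn gave 69 to 195 genes higher and 56 to 155 lower for the difference of the zymosan response (69 and 56 without KO zymosan replicate 2, 91 and 63 without KO zymosan replicate 1, 78 lower without WT zymosan replicate 2). It gave 434 to 700 genes higher for that of LPS (434 without WT LPS replicate 4) and 0 to 1 members lower. Members were 1 to 2 higher for LPS in WT, 1 to 2 lower for zymosan against LPS in WT and 0 to 1 lower for KO against WT with zymosan.

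No called member reversed. Signs turned only in members that had not passed or in Cyp26b1. Dhrs3 for zymosan against LPS in KO became -0.000965 with DESeq2 size factors, -0.0123 in replicates 1 and 2 alone, -0.0124 without KO zymosan replicate 2 and -0.0141 without KO LPS replicate 4. In replicates 1 and 2 alone Rdh10 became 0.0149 for zymosan in WT and 0.132 for LPS in KO. Rxra became -0.0510 for zymosan against LPS in WT and 0.0587 for the difference of the zymosan response, and the latter was 0.00140 without KO untreated replicate 4. Rara for KO against WT untreated became -0.0165 without WT untreated replicate 3 and -0.0048 without KO untreated replicate 2. Rdh10 for LPS in KO became 0.0291 without KO LPS replicate 3, and Cyp26b1 for zymosan in KO -0.0176 without KO zymosan replicate 4. When each library was left out, the highest or lowest opposite values of these were 0.0374 for Dhrs3, 0.0728 for Rara, -0.161 for Rdh10, -0.142 for Rxra and 0.0816 for Cyp26b1. Except where stated, the cause was not tested. Rdh10, with 55 to 122 reads per sample, is the member most limited by depth.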
